A study of Mus musculus with 19 samples.

Results

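Androgen-regulated genes of the proximal tubule were followed across healthy, obstructed and zalfermin-treated obstructed mouse kidneys. The genes are Kap, Pzp, Acsm3, Slco1a1, Cyp4a12a, Sec14l3, Prlr and Odc1, 8 of the 55536 genes counted, and all 8 passed the filter on low counts that left 16026 genes for testing. They were chosen by their measured differences between these same groups, vehicle against healthy and zalfermin against vehicle, and taken by symbol, so their levels and differences are given as a description, with no test. Tests are given for other genes, in lists named where they are used.

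RNA was measured in whole kidney in 19 libraries. The healthy group had 4 libraries, named untreated in the sample labels and vehicle in the series design. The vehicle group had 7 libraries of obstructed kidney given vehicle, and the zalfermin group had 8 of obstructed kidney given zalfermin, a long-acting analogue of the metabolic hormone FGF21 that the labels give only as a code. The design names the obstructed condition UUO, usually read as unilateral ureteral obstruction, in which surgery ties off 1 ureter and the kidney scars, while the labels call the same kidneys MASH, the name of a fatty liver disease. The sources used here give no strain, age, dose, duration or time of sampling. The labels also do not say that each library is its own animal, so the p-values reflect the spread among these libraries alone, part of which may be technical. Reads of Ddx3y, on the Y chromosome, outnumbered those of Xist in all 19 libraries. Totals ran from 12209122 to 14844103 counts, and levels are CPM, counts per TMM-scaled library total. The scaling factors ran from 0.751 to 0.843 in healthy and from 1.02 to 1.11 in obstructed libraries, and vehicle replicate 6 stood apart with 1.10% of its counts from mitochondrially encoded genes against at least 3.09% in the other vehicle libraries.

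Androgens are steroid hormones that change the transcription of many genes in the mouse proximal tubule. The male and female mouse kidney differ most in this segment, and Kap and Odc1 are classic examples of kidney genes induced by testosterone. The segment takes up filtered solutes and organic anions, makes glucose and burns fatty acids, and many of its sex-dependent genes are transporters or enzymes of lipid, steroid and drug handling.

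The 3 stretches of DNA below are RefSeq promoter windows (build GRCm38.p6) and show the letters that a reader would look for first in androgen-responsive genes. Each is the 250 bases before a RefSeq transcript start, read 5′ to 3′ on the gene's strand. Capitals mark every match, on either strand, to the androgen response element (AGAACA and TGTTCT with 3 bases between), its half-site TGTTCT on its own, the STAT5 palindrome TTCNNNGAA, the TATA core TATAAA and the HNF1 core (GTTAAT and ATTAAC with 1 base between). Kap is shown as the most abundant of the 8 genes, at chr6:133853668-133853917 on the minus strand. Pzp is shown as the gene with the largest difference under zalfermin, at chr6:128526721-128526970 on the minus strand. Prlr is shown as the gene that went the other way, at chr15:10223656-10223905 on the plus strand, 1 of its 3 windows.
Kap: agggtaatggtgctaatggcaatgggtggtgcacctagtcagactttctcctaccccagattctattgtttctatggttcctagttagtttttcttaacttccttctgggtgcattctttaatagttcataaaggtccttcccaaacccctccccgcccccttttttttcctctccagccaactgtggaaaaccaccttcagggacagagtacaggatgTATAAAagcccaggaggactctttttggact
Pzp: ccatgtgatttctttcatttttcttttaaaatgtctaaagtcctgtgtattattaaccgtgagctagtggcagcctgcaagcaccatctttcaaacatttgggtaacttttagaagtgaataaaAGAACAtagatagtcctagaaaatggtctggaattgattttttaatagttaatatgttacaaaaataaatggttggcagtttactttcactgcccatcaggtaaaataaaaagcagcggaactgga
Prlr: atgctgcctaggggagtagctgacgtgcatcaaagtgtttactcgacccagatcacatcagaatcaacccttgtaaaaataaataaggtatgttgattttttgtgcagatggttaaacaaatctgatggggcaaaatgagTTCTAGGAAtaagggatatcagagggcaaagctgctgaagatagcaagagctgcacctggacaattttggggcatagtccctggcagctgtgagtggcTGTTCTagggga
The capitals in Kap are a TATA core that begins 31 bases before the start, and those in Pzp are a half-site, AGAACA on the printed strand, that begins 126 bases before it. The Prlr window holds a STAT5 palindrome 110 bases and a half-site 12 bases before its start. The bases that follow this window were not found in an annotated Prlr transcript (GENCODE). The other Prlr windows held none of these motifs, among them chr15:10176988-10177237, directly before the annotated start of the gene. RefSeq windows were found for 7 of the 8 genes, 9 windows in all, with none for Cyp4a12a. The full androgen response element was in 0 of the 9 windows and in 0.00913% of 32851 promoter windows of the same length. The half-site, which the full element also holds, was in 2 of the 9 windows and in 16.1% of all windows. The STAT5 palindrome was in 1 of 9 against 7.02%, the TATA core in 2 of 9 (Kap and Slco1a1) against 12.4%, and the HNF1 core in 0 of 9 against 0.00913%. A match in such a short window describes its letters only.

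Kap and Pzp encode secreted proteins. Kap, the kidney androgen-regulated protein gene, is annotated on GRCm38 at chr6:133849851-133853762 (ENSMUSG00000032758). It stood at 22162, 30569, 24786 and 33665 CPM in the 4 healthy libraries, at 4045 to 8314 CPM (median 5135) in the vehicle libraries and at 1604 to 5110 CPM (median 2703) in the zalfermin libraries. Every vehicle library lay below every healthy one, and 7 of 8 zalfermin libraries lay below the lowest vehicle library. Group means were 27795 ± 5258, 5994 ± 1711 and 3034 ± 1125 CPM (SD, n = 4, 7 and 8). The fitted log2 fold change was -2.21 (SE 0.247) for vehicle against healthy and -0.98 (SE 0.209) for zalfermin against vehicle. Kap alone took 1.87% to 2.53% of all counts in healthy libraries and 0.171% to 0.531% in zalfermin libraries. In bulk kidney RNA, fewer proximal tubule cells and less RNA of a gene per cell cannot be told apart.

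Pzp encodes the pregnancy zone protein, a protease inhibitor of the alpha-2-macroglobulin family (chr6:128483567-128526720, ENSMUSG00000030359). Its healthy libraries stood at 112, 119.5, 149 and 141 CPM. The vehicle libraries ran from 11.7 to 60.4 CPM (median 26.5) and the zalfermin libraries from 1.60 to 15.2 CPM (median 4.68). Healthy and vehicle libraries did not overlap, and zalfermin replicate 1 was the only library of its group to reach the vehicle range. The log2 fold change was -1.95 (SE 0.377) with obstruction and -2.63 (SE 0.363) under zalfermin. The fitted healthy level was thus 23.9 times the fitted zalfermin level, the widest span of the 8 genes. An antisense gene, Gm10069, covers 4.72% of the exon bases of Pzp.

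**Figure D1:**
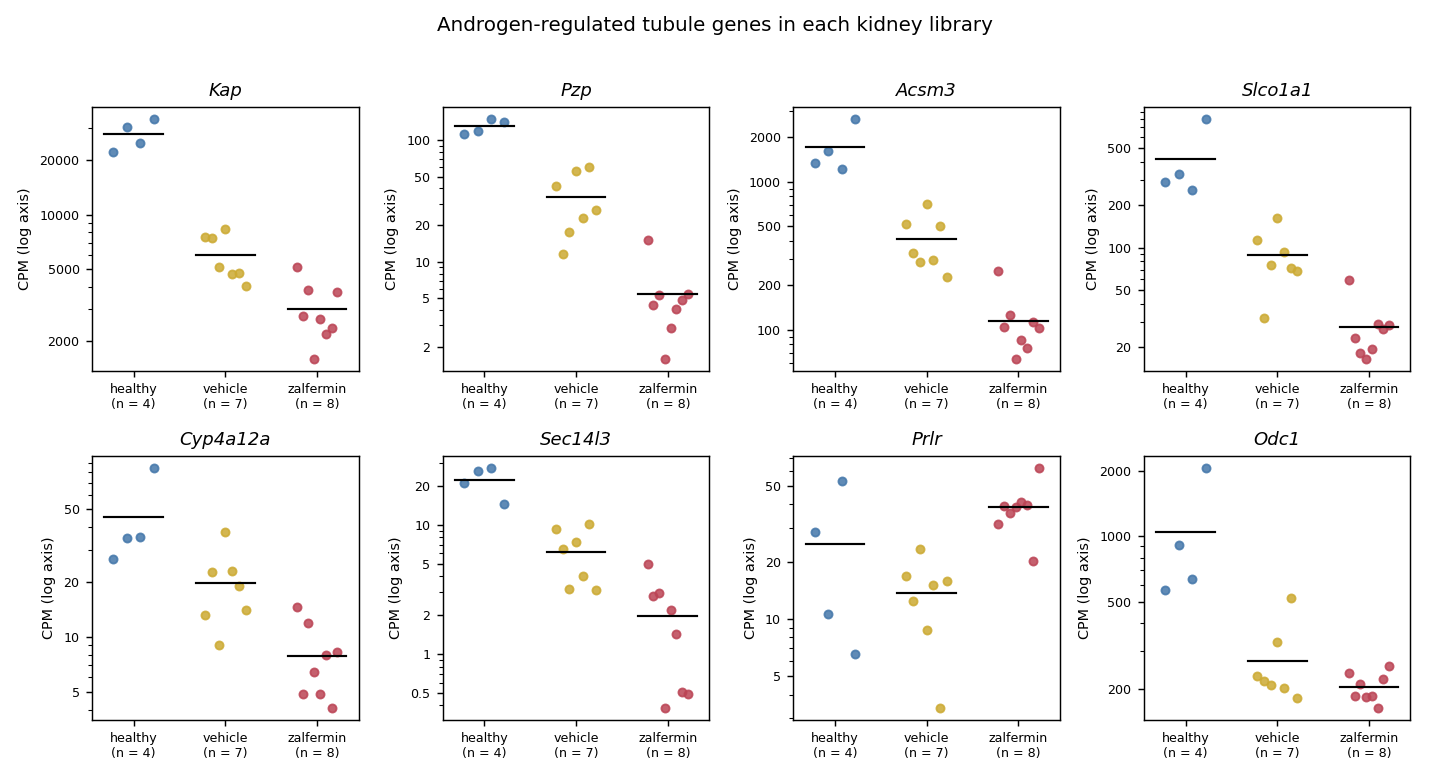
Level of each of the 8 genes in every library, in CPM on a log axis, by group; points are libraries and lines are group means. Kap, Pzp, Acsm3, Slco1a1, Cyp4a12a and Sec14l3 step down from healthy to vehicle to zalfermin, Odc1 steps down once, and Prlr is highest in zalfermin.

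Acsm3, Cyp4a12a and Sec14l3 belong to lipid metabolism. Acsm3 encodes a mitochondrial acyl-CoA synthetase that activates medium-chain fatty acids (chr7:119760923-119787513, ENSMUSG00000030935). It stood at 1338, 1608, 1223 and 2654 CPM in healthy, at 230 to 707 CPM (median 333) in vehicle and at 64.0 to 250.5 CPM (median 104) in zalfermin libraries. Healthy and vehicle libraries did not overlap, and 7 of 8 zalfermin libraries lay below all vehicle libraries, the exception again being zalfermin replicate 1. The 2 steps were of like size, with log2 fold changes of -2.06 (SE 0.314) and -1.83 (SE 0.271). Acsm3 shares 39.7% of its exon bases with Eri2 on the opposite strand, and the sources used here do not say whether the counting kept strands apart. Eri2 itself was at 12.98 ± 1.29, 12.3 ± 3.76 and 15.01 ± 0.929 CPM (SD, n = 4, 7 and 8), far below Acsm3 in every group.

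Cyp4a12a encodes the fatty acid omega-hydroxylase that makes most 20-HETE in the male mouse kidney (chr4:115299046-115332815, ENSMUSG00000066071). Its healthy libraries stood at 26.7, 34.9, 35.1 and 84.1 CPM, the vehicle libraries at 9.04 to 37.8 CPM (median 19.1) and the zalfermin libraries at 4.09 to 14.6 CPM (median 7.17). Here 1 vehicle library lay within the healthy range, and 6 of 8 zalfermin libraries lay below the lowest vehicle library. Its log2 fold change was -1.19 (SE 0.346) with obstruction, and -0.70 with healthy replicate 4 left out. Under zalfermin it was -1.33 (SE 0.309). The values are uncertain, because its transcript is 98.3% identical to that of Cyp4a12b over 2394 aligned bases. Cyp4a12b went from 11.1 ± 2.54 to 16.8 ± 6.31 and 15.8 ± 2.18 CPM, and rose with obstruction by the test over all genes (log2 fold change 0.60, SE 0.218, edgeR adjusted p = 0.0191). With voom, or with healthy replicate 1 or 2 left out, it was not called (adjusted p up to 0.0890).

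Sec14l3, which encodes a lipid-binding protein of the Sec14 family (chr11:4064841-4077736, ENSMUSG00000054986), was counted at low levels. It stood at 21.2, 25.8, 27.4 and 14.4 CPM in healthy, at 3.15 to 10.0 CPM (median 6.47) in vehicle and at 0.384 to 4.94 CPM (median 1.81) in zalfermin libraries. Healthy replicate 4, the highest healthy library for Kap, Acsm3, Slco1a1, Cyp4a12a and Odc1, was the lowest for Sec14l3. Healthy and vehicle libraries did not overlap, and 7 of 8 zalfermin libraries lay below the vehicle range. The log2 fold changes were -1.84 (SE 0.407) and -1.66 (SE 0.395).

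Slco1a1 encodes an organic anion transporter of the proximal tubule brush border and of the liver (chr6:141907282-141946962, ENSMUSG00000041698). The healthy libraries stood at 288, 331, 255 and 801 CPM. The vehicle libraries ran from 32.2 to 162 CPM (median 75.1) and the zalfermin libraries from 16.6 to 58.9 CPM (median 24.9). All vehicle libraries lay below all healthy ones, and all zalfermin libraries but replicate 1 lay below the vehicle range. Its log2 fold change with obstruction was -2.25 (SE 0.352), the largest of the 8 genes but close to that of Kap (-2.21). Over the alternative settings it ran from -2.46 to -1.72. Under zalfermin the log2 fold change of Slco1a1 was -1.68 (SE 0.309).

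Odc1 and Prlr did not follow this course. Odc1 encodes ornithine decarboxylase, the rate-limiting enzyme of polyamine synthesis (chr12:17544794-17551505, ENSMUSG00000011179). It stood at 567, 916, 638 and 2053 CPM in healthy, at 183 to 521 CPM (median 218) in vehicle and at 164 to 254 CPM (median 199) in zalfermin libraries. Every vehicle library lay below every healthy one, but 7 of 8 zalfermin libraries lay inside the vehicle range. The log2 fold change was -1.95 (SE 0.283) with obstruction and -0.40 (SE 0.240) under zalfermin. The latter was -0.16 without vehicle replicate 6 and -0.13 with voom.

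Prlr encodes the prolactin receptor, a cytokine receptor that signals through JAK2 and STAT5 (chr15:10177238-10349180, ENSMUSG00000005268). Its healthy libraries were widely spread, at 28.7, 10.7, 53.0 and 6.58 CPM. The vehicle libraries ran from 3.41 to 23.2 CPM (median 15.04) and the zalfermin libraries from 20.3 to 62.1 CPM (median 39.0). Vehicle and healthy libraries overlapped, with 6 of 7 vehicle libraries in the healthy range, whereas 7 of 8 zalfermin libraries lay above every vehicle library. The log2 fold change with obstruction was -0.87 (SE 0.419), and from -1.18 without healthy replicate 4 to -0.17 without healthy replicate 3. It was 1.50 (SE 0.356) under zalfermin, which left the zalfermin mean, 38.6 ± 11.7 CPM, above the healthy mean of 24.7 ± 21.2 CPM.

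How many of the 8 genes were called was fixed by how they were chosen, so the counts are given beside the share of all genes called and nothing is read from them. In edgeR's quasi-likelihood test with Benjamini-Hochberg adjustment, called means adjusted p under 0.05. With obstruction 64.8% of all tested genes were called, 28.6% lower and 36.2% higher, and 7 of the 8 genes were called lower, all but Prlr. Cyp4a12a was not called lower there without healthy replicate 4, alone or with vehicle replicate 6, and Prlr was called lower in 4 of 29 alternative settings, without healthy replicate 2 or 4 or vehicle replicate 3, and without healthy replicate 4 and vehicle replicate 6. Under zalfermin 1.81% of genes were called, 0.942% lower and 0.867% higher, and 6 of the 8 were called lower and 1, Prlr, higher. Prlr was no longer called in a robust fit, nor when vehicle replicate 2, 4 or 7 or zalfermin replicate 2, 4, 5 or 8 was left out. Cyp4a12a and Sec14l3 each lost theirs under zalfermin in 6 of 29 alternative settings. Over all genes 0.112%, 18 genes, were called lower in both comparisons, and 6 of these are Kap, Pzp, Acsm3, Slco1a1, Cyp4a12a and Sec14l3. By sign alone 16.9% of genes, and 7 of the 8, were lower in both.

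Groups that did not overlap were counted in the same way. All vehicle libraries lay below all healthy libraries for 6 of the 8 genes and for 19.5% of all genes. All zalfermin libraries lay below all vehicle libraries for 0 of the 8 and for 0.256% of all genes, and above them for 0 of the 8 and for 0.349%. In 5 genes (Kap, Pzp, Acsm3, Slco1a1 and Sec14l3) zalfermin replicate 1 was the 1 library that reached into the vehicle range. A downward course with no overlap at either step was seen in 0.0125% of all genes. These were Lpl, the lipoprotein lipase gene, and the predicted gene Gm6300, named here after their values were seen, and none of the 8.

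The size of each step differed between the genes. Both comparisons use the same vehicle libraries, so a low or high vehicle group moves them in opposite directions. The part of the whole log2 difference between healthy and zalfermin kidneys that lay in the obstruction step was 83.1% for Odc1 (77.8% to 93.9% over the alternative settings that fit all 3 groups) and 69.3% for Kap. Over the same settings Kap ran from 63.7% to 72.3%. The part was 57.2% for Slco1a1 (50.0% to 62.8%), 52.9% for Acsm3 (46.6% to 57.7%) and 52.6% for Sec14l3 (45.8% to 59.3%). For Cyp4a12a it was 47.1% (34.4%, without healthy replicate 4, to 56.4%) and for Pzp 42.5% (36.4% to 47.4%). From Slco1a1 to Pzp the range of each gene overlapped that of the next, so neighbours in this order are not told apart. Fitted healthy levels were 15.2 times the fitted zalfermin levels for Slco1a1, 14.8 times for Acsm3 and 11.4 times for Sec14l3. They were 9.16 times for Kap, 5.73 times for Cyp4a12a and 5.08 times for Odc1. The median log2 fold change of the 8 genes was -1.95 with obstruction and -1.50 under zalfermin, beside 0.09 and 0.01 for all tested genes.

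**Figure D2:**
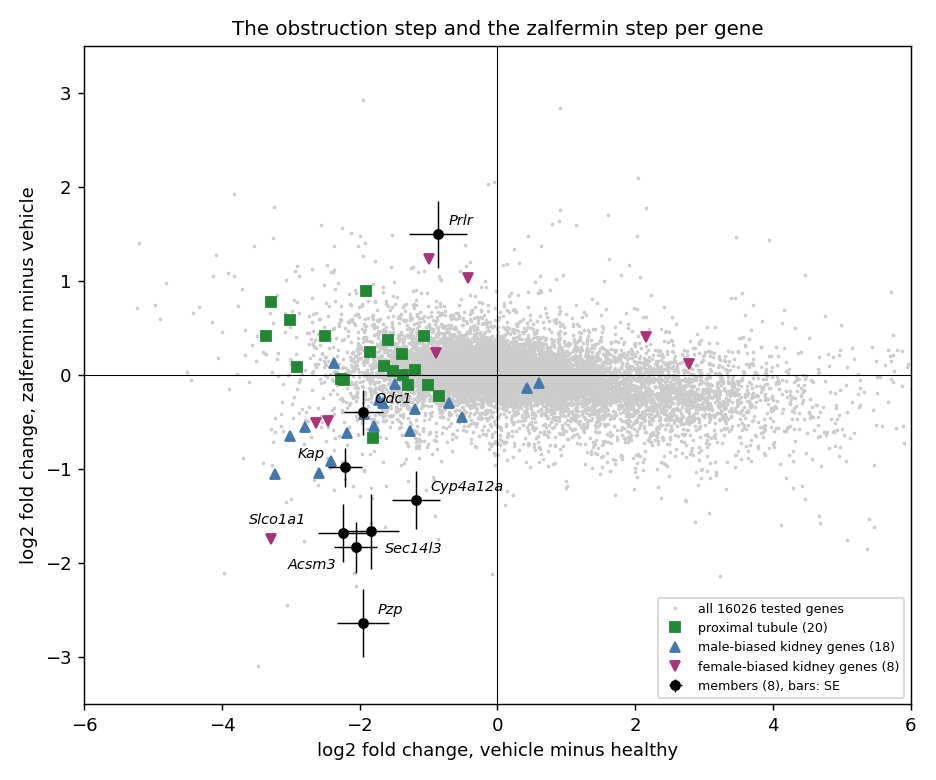
Log2 fold change with obstruction (horizontal) against log2 fold change under zalfermin (vertical) for 16026 tested genes. Marked are the 8 genes (bars are SE), 20 proximal tubule markers, and kidney genes listed as male-biased (18) and female-biased (8). Outside the axes lie 83 genes. The proximal tubule markers lie left of 0, from -0.67 (Slc22a12) to 0.90 (Slc5a12) on the vertical axis, while 6 of the 8 genes lie left of 0 and at -0.98 or below.

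Compared per kilobase of exon, Kap exceeded the other genes by far, with 39314 ± 7437 CPM per kb in healthy kidneys. Acsm3 (346 ± 132) and Odc1 (306 ± 203) came next with overlapping spreads, followed by Slco1a1 (79.4 ± 48.7), Pzp (20.3 ± 2.69) and Cyp4a12a (18.7 ± 10.8), the last pair again overlapping. Sec14l3 stood at 7.98 ± 2.09, and Prlr was lowest at 1.61 ± 1.38. The length used is that of all annotated exons of a gene together, 15339 bases for Prlr and 2784 for Sec14l3. The rank of Prlr depends on that length. In zalfermin kidneys Kap (4292 ± 1591 CPM per kb), Odc1 (60.4 ± 8.94) and Acsm3 (23.4 ± 11.8) still led. Prlr (2.52 ± 0.760) had passed Pzp (0.856 ± 0.645) and Sec14l3 (0.706 ± 0.571) there.

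Proximal tubule markers fell with obstruction as well. The 20 markers, among them the megalin gene Lrp2, the phosphate transporter gene Slc34a1 and the transcription factor gene Hnf4a, were abundant in healthy kidney, at a mean of 9.70 ± 0.132 log2 CPM. Their mean was 7.76 ± 0.286 in vehicle and 7.94 ± 0.300 log2 CPM in zalfermin kidneys. All 20 fell with obstruction, with a median log2 fold change of -1.73. Under zalfermin 2 rose, the lactate transporter gene Slc5a12 (0.90, SE 0.201, edgeR adjusted p = 0.0231) and the cystine transporter gene Slc7a9 (0.42, SE 0.0748, adjusted p = 0.00543), 0 fell, and the median was 0.09. At unadjusted p under 0.05 the numbers under zalfermin were 7 higher and 1 lower, with 4 higher and 0 lower in DESeq2 and 5 higher and 0 lower in voom. The call of Slc5a12 was lost without vehicle replicate 2 or 7 (adjusted p up to 0.0573).

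The level of each gene was therefore also taken as a ratio to the geometric mean of these markers in the same library. On this scale the difference between vehicle and healthy kidneys was small for 6 of the 8 genes, between -0.30 (Kap) and 0.10 (Odc1) in log2. It was 0.77 for Cyp4a12a and 1.35 for Prlr, and the median was -0.07. Under zalfermin the log2 ratio was lower than in vehicle kidneys by 2.86 for Pzp, and it differed by -2.22 for Sec14l3, -2.03 for Acsm3 and -1.83 for Slco1a1. The difference was -1.51 for Cyp4a12a, -1.20 for Kap and -0.50 for Odc1, and 1.45 for Prlr, with a median of -1.67. All 8 zalfermin libraries lay below all vehicle libraries in this ratio for Pzp, Acsm3 and Sec14l3. So did 7 of 8 for Slco1a1, Cyp4a12a and Odc1 and 6 of 8 for Kap. The share of all genes that did so in this ratio was not counted, so nothing is read from these counts. With Lrp2 alone as the reference, the medians were -0.13 and -1.74.

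**Figure D3:**
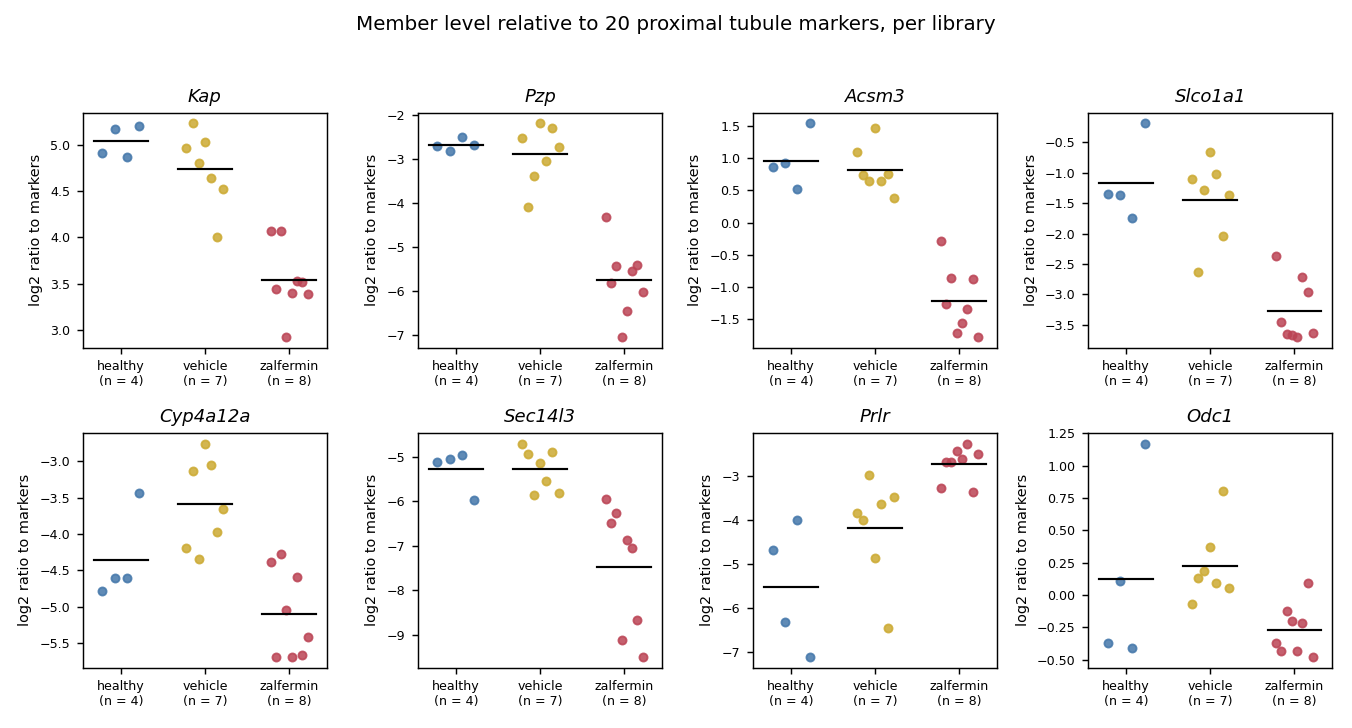
Log2 ratio of each gene to the geometric mean of 20 proximal tubule markers in the same library, by group; points are libraries and lines are group means. Healthy and vehicle libraries overlap in all 8 panels, and the zalfermin mean is the lowest for the 7 genes other than Prlr.

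Most other male-biased genes of the mouse kidney also fell with obstruction, and 1 fell under zalfermin. This list of 18 was drawn up with earlier results of these samples known and holds none of the 8 genes. With obstruction 16 of 18 fell and 2 rose, and the median of all 18 was -1.76 in log2. The strongest by p were Akr1c21, a steroid dehydrogenase gene (-2.37, SE 0.196, edgeR adjusted p = 5.35e-10), and the brush border protease genes Mep1a (-1.66) and Mep1b (-2.80). The genes that rose were Cyp4a12b and Gusb, the beta-glucuronidase gene (0.42, SE 0.108, adjusted p = 0.00156). Library totals alone, in place of TMM, moved the median of all genes with obstruction from 0.09 to 0.51. The calls of Adh1 and Hsd11b1 were lost with them (adjusted p = 0.0744 for Hsd11b1), and that of Adh1 also without healthy replicate 4.

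Under zalfermin 17 of these 18 genes were below 0, with a median of -0.43, but 1 passed the test. Cyp7b1, an oxysterol hydroxylase gene, fell from 87.9 ± 26.0 to 46.8 ± 21.4 CPM (log2 fold change -0.91, SE 0.217, edgeR adjusted p = 0.0306). It was no longer called when vehicle replicate 1, 2 or 4 or zalfermin replicate 2, 4, 5 or 7 was left out (adjusted p up to 0.0691). Slc22a30, an organic anion transporter gene, stood at 31.0 ± 11.5 and 15.1 ± 9.52 CPM (-1.04, adjusted p = 0.0586), and Cndp2, a dipeptidase gene, at 846 ± 298 and 559 ± 67.1 CPM (-0.60, adjusted p = 0.0828). At unadjusted p under 0.05, 12 were lower and 0 higher. For this and the other lists, the share of all genes at that p was not counted. The share of all genes below 0 under zalfermin was not counted either, so nothing is read from these numbers. DESeq2 and voom each called 4 lower and 0 higher.

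A list of 8 genes, drawn up as higher in the female mouse kidney, was looked at beside them. The sex bias of its genes was not tested here, and that of Cyp4b1 is uncertain. With obstruction 5 fell (Cyp2a4, Cyp4b1, Rnf128, Kynu and Slc22a7), 2 rose (Abcc3 by 2.77 and Cyp4a14 by 2.16 in log2) and Slc7a12 was not called, with a median of -0.95. Under zalfermin 1 rose and 0 fell by edgeR, with a median of 0.18. Kynu, which encodes kynureninase of tryptophan breakdown, went from 6.84 ± 2.53 to 16.1 ± 4.31 CPM, above every vehicle library in 8 of 8 zalfermin libraries (1.23, SE 0.280, adjusted p = 0.0237). It was not called when vehicle replicate 7 or zalfermin replicate 2 was left out (adjusted p up to 0.0565). Its fall with obstruction (-0.995) was not called with library totals alone or with healthy replicate 1 or 3 removed, where the adjusted p reached 0.125. The amino acid transporter gene Slc7a12 stood at 24.8 ± 11.97 and 50.7 ± 18.7 CPM (1.03, adjusted p = 0.163), and the anion transporter gene Slc22a7 at 35.3 ± 29.7 and 10.6 ± 8.12 CPM (-1.74, adjusted p = 0.0814). At unadjusted p under 0.05, 3 were higher and 3 lower, Cyp4b1 (-0.51) among the latter. DESeq2 and voom each called 1 higher and 0 lower.

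Genes of nuclear receptor chaperones and coregulators and of androgen metabolism, 15 in all, moved in both directions with obstruction, 4 higher and 6 lower, with a median of -0.24. DESeq2 called 3 higher and 10 lower there and voom 4 and 8. The calls of the coregulator genes Ncor1 (-0.21) and Ncoa3 (0.25) changed in 10 and 6 alternative settings, with adjusted p up to 0.124 and 0.123. Srd5a1 and Srd5a2 both encode 5-alpha-reductases, which make dihydrotestosterone. Srd5a1 rose (0.69, edgeR adjusted p = 6.42e-05) while Srd5a2 fell (-1.16, adjusted p = 3.41e-05). Tgfb1i1, a nuclear receptor coactivator gene, rose (2.26, adjusted p = 4.14e-12) and the chaperone gene Fkbp4 fell (-0.77, adjusted p = 0.000298). Under zalfermin 1 of 15 rose and 0 fell. Fkbp5, an HSP90 co-chaperone gene that androgens and glucocorticoids both induce, went from 73.9 ± 25.8 to 119.7 ± 24.0 CPM (0.70, SE 0.173, adjusted p = 0.0383). In 8 of 8 zalfermin libraries it lay above the vehicle median. The Fkbp5 ranges still overlapped, at 47.5 to 122 CPM in vehicle and 86.6 to 159 CPM in zalfermin libraries. Its call was lost in 9 of the settings that leave out 1 library, namely vehicle replicate 1, 2, 3, 5 or 7 or zalfermin replicate 2, 4, 5 or 7 (adjusted p up to 0.0939). At unadjusted p under 0.05, 4 were higher and 2 lower. DESeq2 called 1 higher and 1 lower, and voom 2 higher and 1 lower.

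Growth hormone and prolactin receptor signalling, the pathway of Prlr, was followed in 9 genes. With obstruction 5 rose (Jak2, Socs1, Socs2, Socs3 and Igf1) and 1 fell, the growth hormone receptor gene Ghr (from 1255 ± 93.1 to 377 ± 62.6 CPM, log2 fold change -1.73, edgeR adjusted p = 2.99e-10). Under zalfermin edgeR called 0 of 9, with 0 higher and 3 lower at unadjusted p under 0.05, 1 lower in DESeq2 and 2 lower in voom. Cish, a feedback inhibitor gene induced by STAT5, stood at 44.1 ± 14.03 CPM in vehicle and 39.997 ± 10.3 CPM in zalfermin kidneys (-0.14, SE 0.273, adjusted p = 0.844). Stat5a was at 0.05 and Stat5b at -0.04 in that comparison (adjusted p = 0.839 and 0.857).

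In the polyamine pathway around Odc1, 4 of 11 genes rose with obstruction and 3 fell. The arginase gene Arg2 (2.47, edgeR adjusted p = 3.92e-11) and the spermine oxidase gene Smox (2.44, adjusted p = 1.08e-10) rose furthest, beside Paox and Azin2. Paox was not called when healthy replicate 4 was left out, alone or with vehicle replicate 6 (adjusted p up to 0.143), nor Azin2 with both removed (adjusted p = 0.0824), nor Oaz2 with library totals alone (adjusted p = 0.660). The spermine synthase gene Sms fell (-1.13, adjusted p = 7.93e-05), as did the antizyme genes Oaz1 (-0.67) and Oaz2 (-0.39), whose products send ornithine decarboxylase to degradation. Under zalfermin edgeR called 0 of 11, with 1 higher and 1 lower at unadjusted p under 0.05, 0 in DESeq2 and 1 higher in voom. Azin1, an antizyme inhibitor gene, stood at 159.7 ± 39.9 and 212 ± 18.4 CPM (0.41, adjusted p = 0.0973).

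Close relatives of the 8 genes were compared, 16 by list and 13 with enough reads. With obstruction 8 fell and 4 rose, with a median of -1.04. Those that rose were A2m (2.26), a relative of Pzp, and Sec14l2 (1.86), a relative of Sec14l3. Cyp4a14 (2.16) and Cyp4a12b (0.60), relatives of Cyp4a12a, rose too. Acsm1 (-2.17), Acsm2 (-2.28) and Acsm5 (-1.85), relatives of Acsm3, and Slco1a6 (-2.04), a relative of Slco1a1, fell with edgeR adjusted p of 2.42e-09 or below. Under zalfermin edgeR called 0 of 13, with 0 higher and 1 lower at unadjusted p under 0.05 and 0 in DESeq2 and in voom. In that comparison Acsm1 was at 0.00 (SE 0.123), Acsm2 at -0.25 (SE 0.169) and Acsm5 at 0.11 (SE 0.135), beside -1.83 (SE 0.271) for Acsm3. Slco1a6 was at 0.27 (SE 0.159) beside -1.68 (SE 0.309) for Slco1a1. A2m, the 1 gene lower at unadjusted p, was at -0.62 (SE 0.282) beside -2.63 for Pzp. Sec14l2 was at -0.03 (SE 0.130) and Sec14l4 at -0.63 (SE 0.559) beside -1.66 for Sec14l3. Sec14l4 was scarce, at means of 0.394 CPM in vehicle and 0.255 CPM in zalfermin kidneys. The differences between these relatives and the genes they resemble were not tested.

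Markers of other sources of RNA were counted in each group. Some of the 8 genes are also made in liver. Of 7 hepatocyte genes the defining Ahsg and Cps1 had at most 29 and 22 reads in any library, each time a healthy one. Summed over the healthy, vehicle and zalfermin libraries, Ahsg had 30, 10 and 2 reads and Cps1 had 27, 12 and 3. The summed level of the list was 72.6 to 123 CPM in healthy, 211 to 672 CPM in vehicle and 241 to 903 CPM in zalfermin libraries, most of it the fibrinogen genes Fga, Fgb and Fgg. Alb stood at 16.9 ± 17.3, 1.01 ± 0.714 and 1.15 ± 0.670 CPM. Of 4 adrenal cortex genes Cyp11a1, Cyp11b1 and Cyp21a1 had at most 6 reads in a library. The 3 adipocyte genes summed to at most 14.4 CPM in healthy, 28.5 CPM in vehicle and 124 CPM in zalfermin libraries, with libraries at 0 in each group. All 6 injured tubule genes, all 4 immune genes and all 3 fibroblast genes rose with obstruction. Under zalfermin 1 injured tubule gene rose and 2 fibroblast genes, Col1a1 and Col3a1, fell. The part of these sources in the levels of the 8 genes was not tested.

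Over deviations pooled from the 3 groups, 7 of the genes varied together and Prlr varied against them, but not in each group alone. Each library's log2 CPM was set against its group mean, over 19 libraries. Pearson's r was above 0 in all 21 pairs among Kap, Pzp, Acsm3, Slco1a1, Cyp4a12a, Sec14l3 and Odc1, from 0.09 to 0.80 with a median of 0.55. It was below 0 in all 7 pairs with Prlr, from -0.81 to -0.12 with a median of -0.33. These points share their library, its depth and its content of tubule RNA, and r is a description. Within vehicle libraries 21 of the 21 pairs were above 0 and 6 of the 7 with Prlr below 0. Within zalfermin libraries these numbers were 20 and 4, and Prlr was at 0.12 with Kap and 0.22 with Cyp4a12a. Within the 4 healthy libraries they were 15 and 5, and Sec14l3 was below 0 with each of the other 6 genes. The closest pair was Kap and Acsm3, at 0.80, and the most opposed Prlr and Odc1, at -0.81. The latter was -0.93 within vehicle and 0.02 within zalfermin libraries, and -0.58 without healthy replicate 4 and vehicle replicate 6, which had the highest Odc1 and the lowest Prlr of their groups. Without both, the signs held in all 21 and all 7 pairs, with medians of 0.58 and -0.25.

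**Figure D4:**
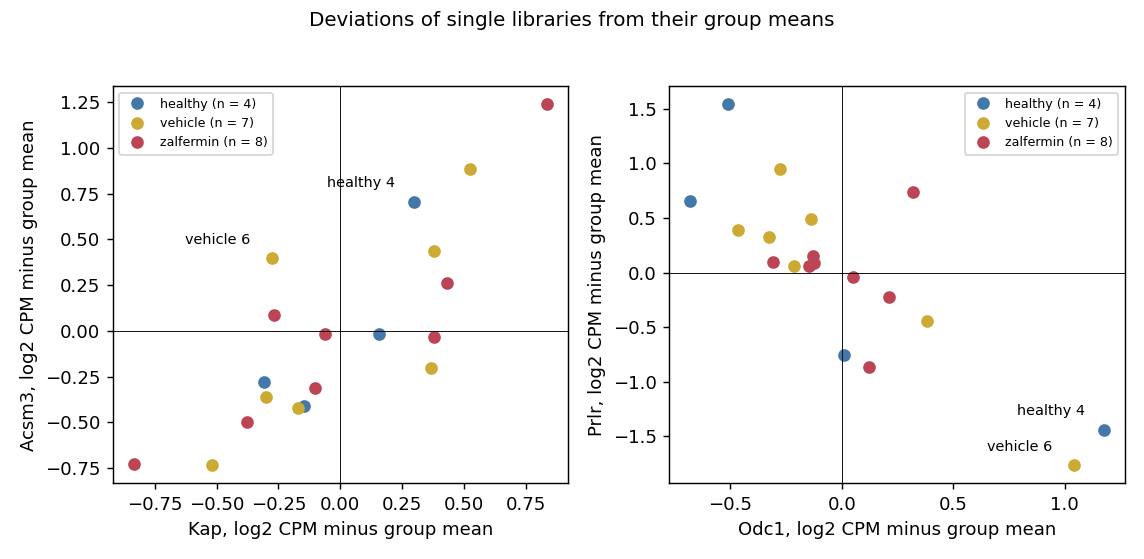
Deviation of each library's log2 CPM from its group mean, Acsm3 against Kap (left, r = 0.80) and Prlr against Odc1 (right, r = -0.81), coloured by group. Kap and Acsm3 deviate together in all 3 groups, while healthy replicate 4 and vehicle replicate 6 lie far from the rest in the right panel.

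Genes outside the list with the most similar course were found by correlating 11626 genes with the mean standardised profile of the 8. The genes compared had a mean level of 5 CPM or more, and those with provisional symbols, such as Gm6300, were left out. Over 19 libraries the 5 most alike were Slc22a30 (r = 0.99), Cyp7b1 (0.98), Akr1c14 (0.98), Slc7a13 (0.97) and Crot (0.97). These encode an organic anion transporter, an oxysterol hydroxylase, a steroid dehydrogenase, an amino acid transporter and a peroxisomal carnitine acyltransferase, and Slc22a30, Cyp7b1 and Slc7a13 are in the male-biased list. Slc7a13 went from 1285 ± 188 to 137 ± 46.3 and 66.1 ± 51.4 CPM. By deviations from group means, where the group differences play no part, the 5 most alike were Pank1 (r = 0.91), Slc22a30 (0.89), Mpv17l (0.89), Akr1c14 (0.89) and Ces1f (0.87).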

How the data were processed

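RNA was measured in whole kidney in 19 libraries. The labels set the groups, and the series design names them. Per the labels' protocols, RNA was extracted with NucleoSpin kits and made into NEBNext Ultra II Directional libraries. Per the submitters' processing notes, reads were aligned with STAR 2.7.0f to GRCm38. The authors deposited whole-number read counts for each gene, not normalized. How reads were counted, on which strand and with which annotation is not given in the sources used here. Reads of genes that overlap on opposite strands, or of near-identical copies, may therefore be shared.

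The filter on low counts was edgeR's filterByExpr by group (minimum count 10, minimum total 15). One quasi-likelihood model (edgeR 4.0.16, R 4.3.3, TMM scaling) was fitted to the 19 libraries, and two-sided F tests were adjusted by Benjamini-Hochberg over all 16026 genes. Log2 CPM for correlations and deviations used a prior count of 2, while the ratios and the marker means used CPM with no prior count. The 8 genes, all gene lists and the tests were chosen with earlier results of these data known. The text names the 8, up to 3 genes of each list with the smallest p in a comparison, called genes against a list's majority, list genes counted at 5 or fewer, and the 5 genes most like the 8 by each of 2 correlations. Cish, Stat5a, Stat5b, Srd5a2, Fkbp4 and the remaining list genes named for their role were chosen after their values were seen. Alternatives were RLE and upper-quartile scaling, library totals alone, DESeq2 1.42.0, voom with quality weights (limma 3.58.1), testing every gene with a count, requiring 1 CPM in 10 libraries, fitting the 2 groups alone, robust fitting, Lrp2 alone as tubule reference, leaving out each library, and, chosen after seeing the data, healthy replicate 4 and vehicle replicate 6 both left out. The fit was tested on simulated data. The test of 1 further gene is not reported here. Coordinates are from GENCODE on GRCm38 and promoter windows from RefSeq on GRCm38.p6. Depth of 12209122 to 14844103 counts leaves few reads for genes near 1 CPM, such as Sec14l3 in zalfermin libraries.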

Additional observations from a re-analysis of the deposited data

Results flagged for a closer look

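Slco1a1 stood at 58.9 CPM in zalfermin replicate 1, and the next library of that group was at 29.0 CPM. On the log2 CPM scale the gap was 0.560 of the range of the 8 libraries, above Dixon's 95% critical value of 0.526. The 8 genes were looked at in 24 groups of libraries, of which this was the only 1 past the value on the log2 scale, and chance alone gives about 1 in 20 such groups. On the CPM scale 5 groups passed, zalfermin replicate 1 standing apart for Pzp, Acsm3 and Slco1a1 and healthy replicate 4 for Slco1a1 and Cyp4a12a. The same library was the highest of its group for Kap, Pzp, Acsm3, Cyp4a12a and Sec14l3, and its proximal tubule markers were at a mean of 8.26 log2 CPM against 7.58 to 8.47 in the other 7.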

How the results depend on the processing

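No paired analysis was possible because the labels number no replicates and the numbers used here are accession order. The fold changes of the 8 genes kept their sign in all 29 alternative settings of each comparison. Genes called under zalfermin numbered 290 in the reported fit, 602 in DESeq2, 1148 in voom, 573 without healthy replicate 4 and vehicle replicate 6, and 153 (without zalfermin replicate 2) to 517 (without vehicle replicate 6) with 1 library left out; with obstruction they numbered 10387, and 9789 to 11199. Of the male-biased list, 1 was lower under zalfermin, against 2 with upper-quartile scaling, 3 with library totals, 4 in DESeq2, 4 in voom, 2 with no filter, 2 in the fit of the 2 groups compared, 3 without healthy replicate 4 and vehicle replicate 6, and 0 to 3 with 1 library left out; with obstruction 2 were higher, against 1 in voom and 1 to 2 with 1 left out. Of the female-biased list, 0 were lower under zalfermin, against 1 with no filter and 0 to 1 with 1 left out, and 1 was higher, against 2 in the fit of the 2 groups and 0 to 1 with 1 left out. Of the 8 genes, 1 was called higher under zalfermin, against 0 in the robust fit and 0 to 1 with 1 left out; 6 were lower, against 4 to 6 with 1 left out, and with obstruction 7 were lower, against 7 to 8. With library totals alone Kap was at -1.79 with obstruction.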
